A study of Mus musculus with 8 samples.

Results

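Ubiquitin-conjugating enzymes and ubiquitin-specific proteases were followed at the RNA level through meiotic maturation of the mouse oocyte and under a mutant of BTG4, an adaptor of the CCR4-NOT deadenylase. Members were all genes with a symbol that starts with Ube2, or with Usp followed by a digit, that were listed in all 8 expression tables, without symbols that carry -ps, the mark of a pseudogene. They numbered 84, of which 33 were Ube2 and 51 were Usp genes, among the 15962 genes shared by the 8 tables. The rule used symbols and this listing, and whether the listing rests on measured values is not given. Of these 84 genes, 3 belong to neither protein family by annotation or known function. Ube2cbp encodes a binding protein of UBE2C, Ube2uos is an antisense transcript at the Ube2u locus, and Usp6nl encodes a GTPase-activating protein of Rab GTPases. Catalytically inactive family members such as Ube2v1 are not among these 3.

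Polyadenylated RNA was amplified by Smart-seq2 from 15 oocytes per library, in 4 groups of 2 libraries. GV oocytes are fully grown and arrested in prophase of meiosis I with an intact germinal vesicle, and MII oocytes are arrested at metaphase II. Both carried the label WT, and the authors describe both as taken from oocytes cultured in vitro. Btg4wt and Btg4tm libraries came from MII oocytes that had been microinjected as fully grown oocytes with capped cRNA, made from a Myc-tagged vector, for wild-type BTG4 or for a BTG4 in which 1 threonine and 2 neighbouring serines were changed to alanine. The methods give 6-week-old female ICR mice, primed with gonadotropins, for oocyte collection. All groups came from oocytes with their own Btg4 gene, so an injected cRNA added to the endogenous RNA. The authors report that injected wild-type and mutant BTG4 seemed to lower endogenous BTG4 protein, and leave this to be clarified. No library from oocytes injected with an unrelated cRNA was analysed here. The comparisons asked which RNAs change from GV to MII, which differ between mutant and wild-type BTG4, and whether wild-type BTG4 itself moves MII oocytes.

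Ubiquitin is activated by an E1 enzyme, passed to an E2 conjugating enzyme and transferred to a substrate with the help of an E3 ligase. The E2 often sets the kind of chain that is built, and a few members of the Ube2 family carry a ubiquitin-like protein in place of ubiquitin. Ubiquitin-specific proteases are the largest family of deubiquitinases and remove or trim these chains. In oocytes, the anaphase-promoting complex (APC/C), a ubiquitin ligase, drives the metaphase to anaphase transition, while transcription is silent and RNA levels are set by maternal mRNA storage, polyadenylation and decay.

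The families differ in size as well as function. Annotated coding sequences had a median of 184 codons in the Ube2 genes (range 145 to 1288, 32 coding genes) and 909 codons in the Usp genes (range 366 to 3582), against 449 codons over the genes tested. Levels are given as scaled TPM, the deposited TPM (a length-corrected share of all transcripts in a library) divided by a factor per library from the median of ratios; the factors lay between 0.948 and 1.11. TPM are corrected for gene length, but the gene lengths used are not given, and differences in capture were not tested. Levels of different genes can thus be compared only roughly on this scale. With their mean over the 8 libraries, Ube2t (405 scaled TPM), Usp46 (238), Ube2h (216), Ube2d3 (212), Usp2 (192) and Usp7 (184) were the most abundant members of their families. UBE2T is the E2 of the Fanconi anaemia pathway of crosslink repair, and USP46 works in a complex with the WD-repeat protein UAF1. Usp25, Usp40 and Usp44 stayed under the minimum of 1 TPM in at least 2 libraries, so that all 33 Ube2 and 48 of 51 Usp genes were tested. USP44 is a deubiquitinase of the mitotic checkpoint, and its scaled TPM did not pass 0.545 in any library.

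All 12 oocyte markers were above 1 TPM in every library, with summed TPM between 41140 and 53010 and Dppa3 the most abundant. Of 14 cumulus and granulosa cell markers, 5 were listed in the GV and MII tables and 7 in the injection tables. Their summed TPM lay between 34.2 and 43.6 over all libraries, and 2 to 4 of them were above 1 TPM in each library. Cyp19a1 was the highest of them, at 16.7 to 25.95 TPM, except in Btg4wt replicate 2, where Nr5a2 was highest at 20.2 TPM. Amh, Foxl2, Has2 and Ptx3 were among those not listed. Replicate libraries correlated with Pearson's r between 0.982 and 0.987 across genes. The mitochondrially encoded RNAs held 0.625% and 0.651% of TPM in GV, 2.71% and 2.60% in MII, 2.07% and 1.77% in Btg4wt, and 0.774% and 1.03% in Btg4tm, so their share moved with both comparisons below. TPM is a share of a library made from polyadenylated RNA, and fewer molecules, shorter tails and a change in the other RNAs cannot be told apart here. The labels do not say that the 2 libraries of a group came from separate animals or cultures, so p-values measure the spread between these libraries.

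From GV to MII, Usp genes were more often called higher than lower, while the Ube2 genes were called at close to the shares of all genes. A gene was called when the limma test, adjusted by Benjamini-Hochberg over all 13968 genes tested, gave p under 0.05 and the log2 fold change passed 1 in size. Of 33 Ube2 genes, 8 fell and 3 rose, and of 48 Usp genes, 4 fell and 13 rose. Over all genes tested, 24.0% were called lower and 12.5% called higher, against 24.2% and 9.09% of Ube2 genes and 8.33% and 27.1% of Usp genes. The median log2 fold change was -0.017 for Ube2 (quartiles -0.99 and 0.54), 0.63 for Usp (quartiles 0.15 and 1.02) and -0.002 for all genes. Both MII libraries lay above both GV libraries for 34 Usp genes and below them for 9, while the counts for Ube2 were 13 and 15; over all genes 41.1% lay above and 41.6% below. These directions hold relative to the other RNAs, since scaling to the mitochondrially encoded genes moved the median of all genes to -1.74, turned the Usp median to -1.23 and turned all 13 Usp and all 3 Ube2 rises into falls; relative to the median of all genes the Usp median then stood at 0.52 and the Ube2 median at -0.31. With TPM as deposited, 5 Usp genes were called in each direction, with 1 Ube2 gene higher and 10 lower. With quantile normalization 5 Ube2 genes were called in each direction. After a trend on transcript length was removed, 3 Usp genes were called higher and 6 lower, the reverse order.

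The deepest falls among the Ube2 genes in maturation were those of Ube2a, Ube2j1, Ube2f and Ube2j2. Ube2a (chromosome X, 36873900 to 36884222, GRCm38) encodes a RAD6 homologue that monoubiquitylates histone H2B and PCNA, and mouse embryos without the maternal gene arrest early. Its scaled TPM was 166 and 169.6 in GV and 21.04 and 26.9 in MII. The groups lay far apart, and the log2 fold change was -2.77 ± 0.16 (SE, limma adjusted p = 3.89e-06). Ube2b, the second RAD6 homologue, had 143 and 129 in GV and 44.3 and 40.1 in MII (log2 fold change -1.66 ± 0.15, limma adjusted p = 3.7e-05). Ube2j1 and Ube2j2 encode the E2 enzymes anchored in the endoplasmic reticulum membrane that serve degradation of misfolded proteins. Ube2j1 had 24.7 and 22.9 in GV against 2.51 and 5.07 in MII (-2.42 ± 0.26, limma adjusted p = 7.6e-05), and Ube2j2 had 38.5 and 40.5 against 9.48 and 9.05 (-1.98 ± 0.14, limma adjusted p = 9.19e-06). None of these groups overlapped.

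Both E2 enzymes of NEDD8, which modifies cullins and so switches on cullin-RING ligases, were in the falling set. Ube2m had 5.53 and 6.06 scaled TPM in GV and 3.00 and 1.67 in MII, with a log2 fold change of -1.06 ± 0.27 (limma adjusted p = 0.00961). Ube2f had 12.03 and 7.47 in GV and 1.31 and 1.49 in MII (log2 fold change -2.13 ± 0.24, limma adjusted p = 0.000107). Ube2w, which ubiquitylates protein N termini, fell from 130.5 and 131 to 68.2 and 60.4 (-1.01 ± 0.11, limma adjusted p = 8.39e-05), and Ube2q1 was the last of the 8. The call was lost for Ube2q1 and Ube2r2 without GV replicate 1, for Ube2m without GV replicate 2, and for Ube2m, Ube2r2 and Ube2w without MII replicate 2, which left 9, 10 and 8 of the 11 calls.

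The broad-range enzymes of the UBE2D group, which start chains with many E3 ligases, ran the other way on the same scale. Ube2d2a had 17.5 and 18.2 scaled TPM in GV and 42.7 and 38.5 in MII (log2 fold change 1.14 ± 0.12, limma adjusted p = 9.23e-05). Ube2d1 rose from 2.55 and 3.55 to 8.57 and 8.70, and the abundant Ube2d3 had 178 and 161 in GV and 227 and 230.5 in MII (log2 fold change 0.43 ± 0.10, not called). In all 3 genes both MII libraries were above both GV libraries. With Ube2r2, a partner of the SCF ligases, Ube2d1 and Ube2d2a made up the 3 Ube2 rises.

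The E2 enzymes of the APC/C were abundant and were not called in maturation on the scale used. UBE2C starts ubiquitin chains on the substrates of the APC/C and UBE2S extends them through lysine-11 linkages. Ube2c had 164 and 176 scaled TPM in GV and 202 and 181 in MII (log2 fold change 0.17 ± 0.15, limma adjusted p = 0.365), although 22.8% of its exonic bases overlap other genes and the counting did not use strand. Ube2s had 133 and 171 in GV and 174 and 171 in MII, and the groups overlapped (log2 fold change 0.19 ± 0.14, limma adjusted p = 0.248). With scaling to mitochondrially encoded genes both Ube2c (-2.04) and Ube2s (-2.01) were called lower in MII. Ube2t was not called either, with 423 and 375 in GV and 393 and 394 in MII. Ube2n, the E2 of lysine-63 chains, had 102 and 103 in GV and 51.8 and 50.7 in MII; its log2 fold change of -0.99 ± 0.10 was just short of a call. Its catalytically inactive partner Ube2v1 was below 1.62 in every library, and 91.2% of its 50-base stretches occur in transcripts of other genes, so this level is uncertain. Ube2k, which builds lysine-48 chains, had 89.5 and 87.3 in GV and 152 and 163 in MII (0.83 ± 0.10, not called), and Ube2h, with 46.3% of its 50-base stretches shared, had 197 and 144.5 against 280.1 and 283.

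**Figure D1:**
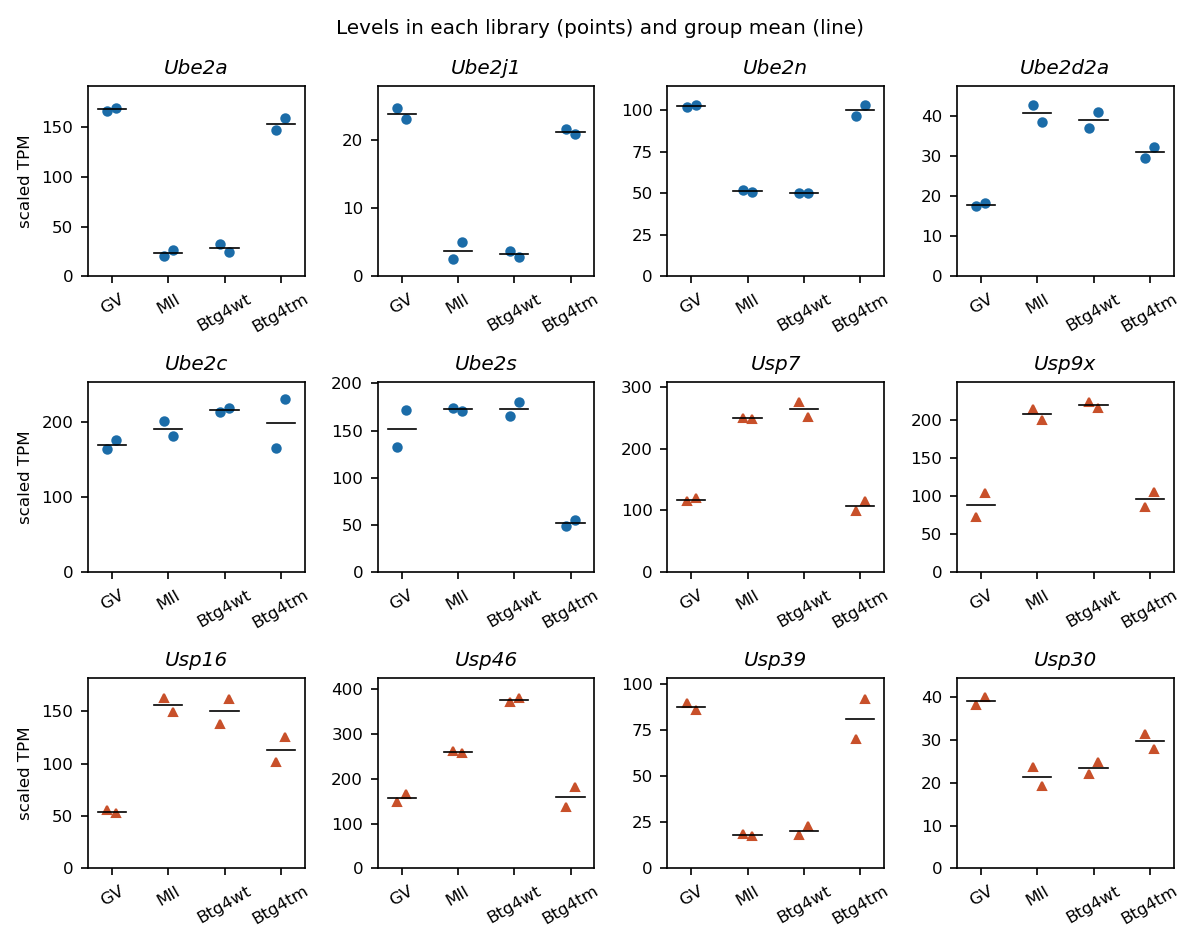
Scaled TPM (vertical axes, each from 0) of 12 members in the 2 libraries of each group, with Ube2 genes as circles, Usp genes as triangles and the group mean as a line. Ube2a, Ube2j1, Ube2n and Usp39 are low in MII and Btg4wt, Usp7, Usp9x and Usp46 are high there, and Ube2s is low in Btg4tm only. With scaling to mitochondrially encoded genes, Ube2s, Usp7, Usp9x and Usp46 are lower in MII than in GV.

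Usp16 and Usp21, which encode deubiquitinases of histone H2A, had the largest rises of the Usp genes from GV to MII. Usp16 (chromosome 16, 87454703 to 87483517) had 55.4 and 53.2 scaled TPM in GV and 163 and 149.6 in MII, a log2 fold change of 1.51 ± 0.13 (limma adjusted p = 2.98e-05). Usp21 had 47.7 and 51.3 in GV and 129.8 and 131 in MII (1.38 ± 0.11, limma adjusted p = 1.76e-05). Neither gene had overlapping groups. Usp34, which acts on axin in WNT signalling and has the longest coding sequence of the members, rose from 11.3 and 11.9 to 30.1 and 28.6 (1.27 ± 0.15, limma adjusted p = 0.000167). Usp9x, an X-linked protease that keeps many proteins from degradation, had 72.1 and 103.8 in GV and 214 and 199.9 in MII, with a log2 fold change of 1.25 ± 0.17 (limma adjusted p = 0.000351). Usp37, a deubiquitinase of cyclin A, had 70.5 and 53.7 against 141 and 143 (1.19 ± 0.22, limma adjusted p = 0.00156), and Usp28, which stabilizes MYC, had 106 and 94.4 against 225 and 218 (1.14 ± 0.13, limma adjusted p = 0.00012). In each of these genes, both MII libraries exceeded both GV libraries on the scale used, and each turns to a fall with the mitochondrial scaling.

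Usp7, which acts on p53 and its ligase MDM2, was the most abundant of the 13 Usp genes called higher. It had 115.5 and 119.9 scaled TPM in GV and 249.9 and 248 in MII (log2 fold change 1.07 ± 0.11, limma adjusted p = 5.68e-05). Usp1, the deubiquitinase of FANCD2 and PCNA, had 51.3 and 60.6 in GV against 118 and 114 in MII, a log2 fold change of 1.04 ± 0.11 (limma adjusted p = 7.84e-05); 22.8% of its 50-base stretches also occur in other transcripts. The remaining rises were Usp15, Usp31, Usp42, Usp45 and Usp51. Of the 17 Usp calls, 12 were kept without GV replicate 1 (Usp1, Usp31, Usp45, Usp51 and Usp9x lost), 13 without MII replicate 1 (Usp15, Usp31, Usp45 and Usp51 lost) and 16 each without GV replicate 2 (Usp51 lost) or MII replicate 2 (Usp27x lost).

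The falls were few among the Usp genes, and the deepest was in a member that serves splicing. Usp39 encodes a protein of the U4/U6.U5 tri-snRNP with a protease-like fold. It had 89.5 and 85.7 scaled TPM in GV and 18.6 and 17.4 in MII, a log2 fold change of -2.23 ± 0.16 (limma adjusted p = 1.17e-05). Usp4, a paralogue of Usp15, had 48.1 and 42.8 in GV and 13.6 and 13.2 in MII (-1.69 ± 0.18, limma adjusted p = 6.83e-05), whereas Usp15 itself rose from 43.7 and 42.6 to 92.3 and 85.6 (1.02 ± 0.11, limma adjusted p = 9.38e-05). Usp35 and Usp27x completed the 4 falls at lower levels. Usp30, the deubiquitinase of the mitochondrial outer membrane that opposes mitophagy, had 38.2 and 40.0 against 23.6 and 19.2, with both MII libraries lower but no call (-0.85 ± 0.15, limma adjusted p = 0.00118). Deubiquitinases that work on free chains or at the proteasome were also uncalled: Usp5 had a log2 fold change of -0.35 ± 0.21 and Usp14, which overlaps a neighbouring gene in 26.0% of its exonic bases, had -0.47 ± 0.17. Usp22, the deubiquitinase of the SAGA coactivator, had 14.1 and 13.0 in GV and 16.0 and 19.6 in MII (0.36 ± 0.15, limma adjusted p = 0.0675).

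In maturing oocytes, dormant mRNAs are lengthened in their poly(A) tails through the cytoplasmic polyadenylation element, a U-rich motif near the 3′ end that CPEB1 binds. The DNA letters TTTTAT and TTTTAAT were searched on the transcript strand in the last 150 bases of the annotated principal transcript (GENCODE M21, GRCm38). Among genes tested with a 3′ untranslated region of that length, they were present in 5 of 29 Ube2 genes (17.2%), in 8 of 45 Usp genes (17.8%) and in 26.3% of all genes. Of the 12 Usp genes called higher in MII that had such a window, 6 held a motif (50%), against 40.4% of all genes called higher; none of 4 Usp genes and none of 7 Ube2 genes called lower held one, against 13.5% of all genes called lower. A match is a description of the letters and not a shown binding site. The windows of 30 bases below, 5′ to 3′, show the motif in capitals for the 6 Usp genes called higher in MII and, for contrast, for the abundant Ube2d3 and Ube2t, which were not called.
Usp16: tagcatactggtTTTTATtccttctagttt
Usp21: tcccgttattttTTTTATtaagaagtaccc
Usp28: caactatgcaggTTTTATaaatgtgcaata
Usp31: atgttgaaaacgTTTTATttctgagacagc
Usp34: ctcaagtaaaccTTTTATttcttcgaagtg
Usp7: tgcctggaggctTTTTAATaaccgtctctc
Ube2d3: atttgtctcctaTTTTATgaggaacccaat
Ube2t: aaggatagtttgTTTTATttatcttgtaca
The motif of Usp28 starts 38 bases before the annotated end and those of Usp21 and Usp34 start 130 bases before it.

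With mutant BTG4, Usp genes were more often called lower than higher. The Ube2 genes were again called at close to the shares of all genes, while their median lay above that of all genes. Between Btg4tm and Btg4wt, 6 Ube2 genes were higher and 3 lower, and 2 Usp genes were higher and 13 lower. Over all genes tested, 18.1% were called higher and 7.94% called lower, against 18.2% and 9.09% of Ube2 genes and 4.17% and 27.1% of Usp genes. The median log2 fold change was 0.36 for Ube2, -0.69 for Usp and 0.01 for all genes. Both Btg4tm libraries lay above both Btg4wt libraries for 21 Ube2 (63.6%) and 6 Usp genes (12.5%), against 37.6% of all genes. They lay below for 9 Ube2 (27.3%) and 34 Usp genes (70.8%), against 36.7% of all genes. With the mitochondrial scaling the median of all genes stood at 0.88 and the Usp median turned to 0.19, which is -0.68 relative to all genes; the sign of the 13 Usp falls turned for Usp1 alone, although none of the 13 was then called. With quantile normalization, 1 Usp gene was higher and 21 were lower. After a trend on transcript length was removed, 3 Usp genes were called higher and 1 lower, the reverse order.

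The 6 Ube2 genes that were higher with mutant BTG4 were Ube2a, Ube2b, Ube2f, Ube2j1, Ube2j2 and Ube2m, all of them among the 8 that fell in maturation; of all genes higher with the mutant, 92.5% had fallen in maturation. Ube2a had 32.9 and 24.7 scaled TPM in Btg4wt and 147 and 159 in Btg4tm (log2 fold change 2.38 ± 0.16, limma adjusted p = 1.37e-05). Ube2j1 had 3.65 and 2.80 in Btg4wt and 21.5 and 20.8 in Btg4tm, a log2 fold change of 2.40 ± 0.26 (limma adjusted p = 0.000132). Their Btg4tm libraries lay a little below the GV libraries given above and well above those of Btg4wt. Ube2b had 41.0 and 36.6 against 103 and 137 (1.59 ± 0.15, limma adjusted p = 7.75e-05), and Ube2j2 had 10.8 and 9.33 against 30.1 and 27.2 (1.42 ± 0.14, limma adjusted p = 8.22e-05). Ube2m lost its call without Btg4wt replicate 2 or Btg4tm replicate 2, which left 8 of 9 Ube2 calls each time. Ube2n, short of a call again, had 50.2 and 49.9 in Btg4wt and 96.5 and 103 in Btg4tm (0.98 ± 0.10, limma adjusted p = 9.17e-05).

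Ube2s had the largest fall of the Ube2 genes with mutant BTG4. It had 166 and 179.9 scaled TPM in Btg4wt and 49.5 and 55.2 in Btg4tm, a log2 fold change of -1.71 ± 0.14 (limma adjusted p = 2.87e-05). The Btg4tm values were the lowest of the 8 libraries, below both GV libraries as well, a pattern that Ube2o, Usp10, Usp32, Usp33, Usp45, Usp53 and Usp54 also had. Ube2c, its partner on the APC/C, had 214 and 219.5 in Btg4wt and 165.5 and 231 in Btg4tm with overlapping groups (-0.15 ± 0.15, limma adjusted p = 0.464). Ube2o, a large enzyme that joins E2 and E3 functions and the only Ube2 gene above 1000 codons, had 14.4 and 11.5 in Btg4wt and 5.36 and 4.33 in Btg4tm (-1.25 ± 0.19, limma adjusted p = 0.00092). The antisense transcript Ube2uos was the third Ube2 symbol called lower and lost the call without Btg4tm replicate 1. With the mitochondrial scaling, none of these 3 falls was called.

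Usp45, a deubiquitinase of the DNA repair nuclease subunit ERCC1, had the largest fall of the Usp genes with mutant BTG4. It had 15.4 and 12.3 scaled TPM in Btg4wt and 3.33 and 4.15 in Btg4tm (log2 fold change -1.64 ± 0.21, limma adjusted p = 0.000311). Usp53 had 29.9 and 32.1 against 10.2 and 13.0 (-1.36 ± 0.15, limma adjusted p = 0.000161), and Usp33, 38.9% of whose 50-base stretches are shared with other transcripts, had 19.2 and 17.6 against 7.50 and 5.77 (-1.35 ± 0.17, limma adjusted p = 0.000272). No group overlapped in these 3 genes. Usp54 went from 10.7 and 9.61 to 3.37 and 3.74 (-1.29 ± 0.18, limma adjusted p = 0.000529), Usp7 from 276 and 250.3 to 99.5 and 115.9 (-1.28 ± 0.11, limma adjusted p = 3.76e-05), and Usp46 from 369.7 and 380.5 to 137.5 and 182 (-1.24 ± 0.14, limma adjusted p = 0.000155).

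Usp42 had 55.1 and 58.6 scaled TPM in Btg4wt and 19.96 and 28.4 in Btg4tm (-1.22 ± 0.17, limma adjusted p = 0.00052). Usp9x had 223 and 215 in Btg4wt and 85.7 and 105 in Btg4tm (-1.20 ± 0.17, limma adjusted p = 0.000659), and Usp10, a partner of the stress granule protein G3BP, had 61.5 and 62.5 against 30.4 and 24.98 (-1.14 ± 0.13, limma adjusted p = 0.000175). Usp1, Usp8, Usp32 and Usp37 completed the 13; USP8 sorts receptors at endosomes. By contrast, Usp39 had 18.1 and 22.8 in Btg4wt and 69.8 and 91.7 in Btg4tm (1.92 ± 0.16, limma adjusted p = 4.03e-05), and Usp4 had 15.5 and 12.1 against 36.4 and 27.9 (1.16 ± 0.18, limma adjusted p = 0.000825). Usp4 was not called without Btg4wt replicate 2 or Btg4tm replicate 1, so that the Usp count of rises was 1 in place of 2. Usp42 and Usp8 lost their call without Btg4tm replicate 1, Usp8 also without Btg4wt replicate 1, and Usp37 without Btg4tm replicate 2. Usp16, first among the rises of maturation, had 138 and 162 in Btg4wt and 101 and 125 in Btg4tm, a difference of -0.41 ± 0.13 that was not called.

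The 2 comparisons contrast different libraries, but they share the scaling and the estimate of the spread of each gene. Their calls are therefore set side by side without being independent. Of the 8 Ube2 genes that fell in maturation, 6 were higher with mutant BTG4 (75%, against 70.0% of all genes that fell), and of the 4 Usp genes that fell, 2 were (Usp39 and Usp4). Of the 13 Usp genes that rose, 6 were lower with the mutant (Usp1, Usp7, Usp9x, Usp37, Usp42 and Usp45; 46.2%, against 26.5% of all genes that rose), while 0 of the 3 Ube2 rises were. No member was called in the same direction in both comparisons, as held for all but 2 of the 13968 genes tested. In neither comparison were 19 Ube2 (57.6%) and 24 Usp genes (50%) called, against 57.5% of all genes.

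**Figure D2:**
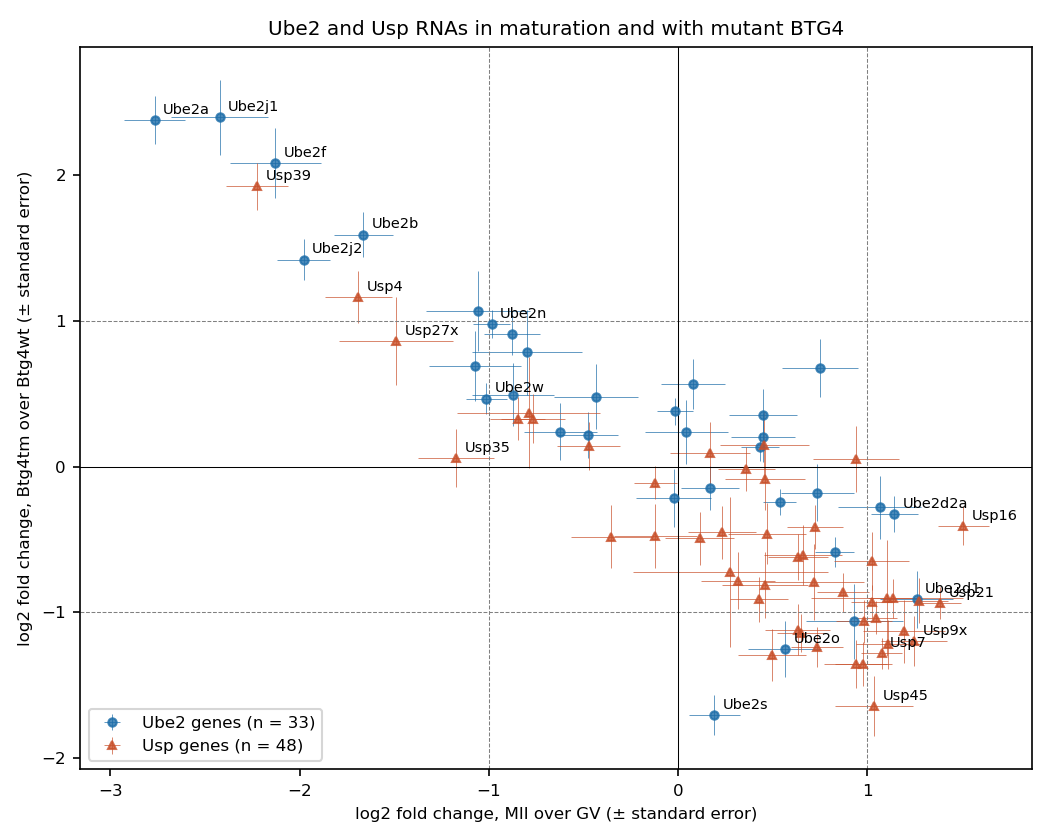
Log2 fold change of MII over GV (horizontal axis) against Btg4tm over Btg4wt (vertical axis) for 33 Ube2 (circles) and 48 Usp genes (triangles), with standard errors; dashed lines mark the fold required for a call. Ube2a, Ube2j1, Ube2f and Usp39 lie at the upper left, most Usp genes lie at the lower right, and Ube2s lies low near the centre; with scaling to mitochondrially encoded genes, the Usp median moves to -1.23 on the horizontal axis and 0.19 on the vertical axis.

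On the TPM scale, the summed Ube2 RNA outweighed the summed Usp RNA in GV and in Btg4tm. The order was reversed in MII and Btg4wt. The Usp sum was 1460 and 1476 scaled TPM in GV, 2494 and 2375 in MII, 2627 and 2685 in Btg4wt, and 1508 and 1570 in Btg4tm. The Ube2 sum moved less, with 2379 and 2257 in GV, 2191 and 2177 in MII, 2112 and 2097 in Btg4wt, and 2488 and 2448 in Btg4tm. The ratio of the sums, which no scaling factor of a library can change, was 1.63 and 1.53 in GV, 0.879 and 0.916 in MII, 0.804 and 0.781 in Btg4wt, and 1.65 and 1.56 in Btg4tm. GV and Btg4tm libraries lay above 1.5 and the other 4 below 1.

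**Figure D3:**
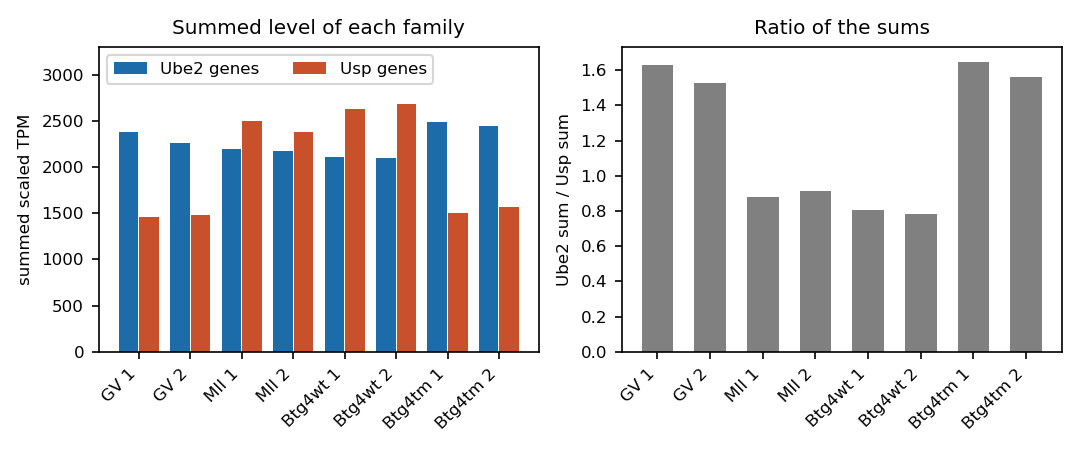
Left, summed scaled TPM of the Ube2 and Usp genes in each of the 8 libraries; right, the ratio of the sums, with bars from 0. The ratio is between 1.53 and 1.65 in GV and Btg4tm and between 0.781 and 0.916 in MII and Btg4wt.

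Coding length moved with both comparisons across all genes tested, and the families lie at different ends of it. The median log2 fold change from GV to MII was -0.54 for all genes of up to 250 codons, -0.22 for 250 to 500, 0.22 for 500 to 1000 and 0.60 above 1000. For Btg4tm over Btg4wt the same medians were 0.45, 0.18, -0.19 and -0.71. The 24 Ube2 genes of up to 250 codons had medians of -0.021 and 0.31 in the 2 comparisons, and the 7 of 250 to 500 codons had -0.48 and 0.68. The 23 Usp genes of 500 to 1000 codons had 0.65 and -0.61, the 18 above 1000 codons had 0.80 and -0.91, and the 7 short ones of 250 to 500 codons had -0.12 and 0.14. In this last range, which both families share, their medians had the same sign in each comparison. By transcript length the families share more genes, and how their signs compared depended on the range. At 3000 to 4500 bases the 10 Ube2 genes had medians of -0.66 and 0.68 and the 16 Usp genes 0.51 and -0.48. All genes there had 0.21 and -0.16. At 1500 to 3000 bases the 11 Ube2 genes had -0.48 and 0.24 and the 5 Usp genes 0.63 and -0.72. All genes there had -0.24 and 0.18. Above 4500 bases the families had the same signs. The 4 Ube2 genes there had 0.65 and -0.38 and the 25 Usp genes 0.66 and -0.81, against 0.55 and -0.55 for all genes. Up to 1500 bases the order was reversed, with 0.075 and -0.18 for 8 Ube2 genes and -0.17 and 0.26 for 2 Usp genes. All genes up to 1500 bases had -0.56 and 0.44.

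Across members, Spearman's rho of codons with the log2 fold change was 0.42 for MII over GV and -0.60 for Btg4tm over Btg4wt (80 genes, which share the libraries), against 0.31 and -0.44 over 11212 coding genes. Within the Usp genes it was 0.33 and -0.41 (48 genes), and within the Ube2 genes 0.05 and -0.02 (32 genes). After a trend on transcript length was removed from the fold changes, the median of MII over GV was 0.09 for Ube2 and 0.13 for Usp, and that of Btg4tm over Btg4wt was 0.30 and -0.24. Of the Usp genes called before, 7 of 17 and 2 of 15 were still called in the 2 comparisons. Of the Ube2 genes, 8 of 11 and 7 of 9 were still called. Without the trend, 3 Usp genes were called higher and 6 lower in MII than in GV. Between Btg4tm and Btg4wt, 3 Usp genes were called higher and 1 lower, so the order of the Usp counts was reversed in both comparisons. How far the length of the RNA, its capture or its tail contributes to the difference between the families was not tested.

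**Figure D4:**
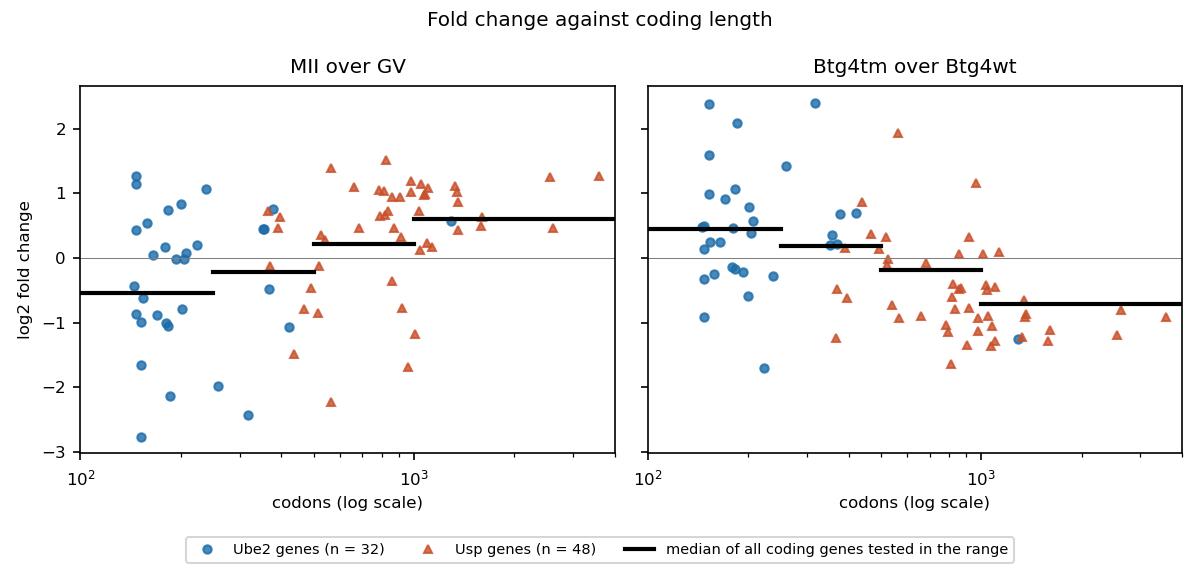
Log2 fold change (vertical axes) against codons (horizontal axes, log scale) for 32 coding Ube2 genes (circles) and 48 Usp genes (triangles), with black lines for the median of all coding genes tested in 4 ranges of length. The lines step up from -0.54 to 0.60 for MII over GV and down from 0.45 to -0.71 for Btg4tm over Btg4wt; with scaling to mitochondrially encoded genes the median of all genes lies at -1.74 and 0.88.

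Wild-type BTG4 was compared with MII oocytes that were not injected. No gene was called between Btg4wt and MII, 0% of 13968 in either direction with limma, while at an unadjusted p under 0.05 there were 1655 genes, of which 3 were Ube2 and 3 were Usp genes. The medians were -0.03 for Ube2, 0.08 for Usp and 0.02 for all genes. These libraries are also part of the comparisons above, so the result is not separate from them. Usp46 had the highest value of a member in Btg4wt, with 369.7 and 380.5 scaled TPM against 262 and 258 in MII, and a log2 fold change of 0.53 ± 0.14 (limma adjusted p = 0.244).

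Other genes of the pathway were read from lists of ubiquitin genes, E1 enzymes, E2 enzymes with other names, further deubiquitinases, and proteases of SUMO and NEDD8. Of the ubiquitin genes, Ubb and Rps27a fell in maturation and were higher with mutant BTG4. Ubb, a polyubiquitin gene, had 5768 and 5863 scaled TPM in GV, 1547 and 1666 in MII, 1826 and 1725 in Btg4wt, and 6099 and 6231 in Btg4tm, so that MII and Btg4wt were low and GV and Btg4tm high (log2 fold change -1.86 ± 0.09, limma adjusted p = 1.9e-06, and 1.80 ± 0.09, limma adjusted p = 3.79e-06). Of 8 E1 enzymes tested, Uba3, the catalytic part of the NEDD8 E1, rose in maturation from 45.9 and 48.8 to 105.9 and 112 (1.18 ± 0.10, limma adjusted p = 2.53e-05), while both NEDD8 E2 genes fell. No E1 gene was called with mutant BTG4.

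Of 7 E2 enzymes with other names, Birc6 rose and Ufc1, the E2 of UFM1, fell in maturation, and Ufc1 was higher with the mutant. Of 28 other deubiquitinases tested, 3 rose and 6 fell in maturation, and 4 were higher and 1 lower with the mutant. These are 10.7% and 21.4% in maturation and 14.3% and 3.57% with the mutant, near or below the shares of all genes given above. Uchl1, a small ubiquitin hydrolase that is abundant in oocytes, had 2040 and 2277 scaled TPM in GV, 542 and 611 in MII, 748 and 613 in Btg4wt, and 1632 and 1803 in Btg4tm, and it fell in the first comparison (-1.90 ± 0.13, limma adjusted p = 7.4e-06) and was higher in the second (1.34 ± 0.13, limma adjusted p = 7.35e-05). The related Uchl3 rose in maturation, from 143 and 140.3 to 325 and 311 (1.16 ± 0.09, limma adjusted p = 1.58e-05). Psmd14, the deubiquitinase of the proteasome lid, fell and was higher with the mutant, as did Otulin, which cuts linear chains, and Josd2. Of 7 SUMO and NEDD8 proteases, Senp1 rose in maturation (1.20 ± 0.11, limma adjusted p = 3.34e-05) and was lower with the mutant (-1.64 ± 0.11, limma adjusted p = 1.2e-05). With the mitochondrial scaling all 6 rises of maturation in these lists (Uba3, Birc6, Uchl3, Otud1, Otud4 and Senp1) turned to falls.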

How the data were processed

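The authors trimmed reads with Trim Galore 0.6.10, aligned them to GRCm38 with HISAT2 2.2.0 and the GENCODE annotation, counted exons with featureCounts 2.0.6 without strand at a minimum mapping quality, and deposited TPM per gene symbol for each of 8 libraries; the gene lengths behind TPM and the filter on listed genes are not given in the sources used here. The labels speak of 3 samples per group, and 2 per group were analysed. Depth cannot be had from TPM, so precision rests on the libraries.

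From the deposited TPM, 15962 genes were listed in both the control (17384) and injection tables (16448). Values were divided by median-of-ratios factors with a geometric mean of 1 and tested as log2(scaled TPM + 1) with limma 3.58.1 (R 4.3.3), fitted to the 8 libraries with 1 coefficient per group and a trended prior variance, for the 13968 genes that reached 1 TPM in 2 or more libraries. Fold changes are on this scale and understate those of low genes. Genes were called at adjusted p under 0.05 (Benjamini-Hochberg over all genes tested) with a log2 fold change over 1 in size. The procedure was checked on simulated data with known changes. Lengths, overlaps and motifs came from GENCODE M21 on GRCm38, where all 84 members matched by symbol and the principal coding transcript gave codons. Members over 20% of whose exonic bases, or of whose 50-base stretches, belong to other genes (13 of those tested) are marked as uncertain where named.

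Members and lists were chosen with earlier results of these data known. The genes described in full were, per family and comparison, the 6 called members with the largest rise and fall whose higher group reached 10 scaled TPM on average, the 3 most abundant per family, and members of known role; members named outside this rule were chosen after their values were seen. Alternatives changed the scaling (TPM as deposited, quantiles, or mitochondrially encoded genes), the pseudocount (0.1), the filter (none, or 5 TPM), the libraries fitted (4 of a comparison, or 1 left out), the replicate block, a trend on transcript length and the minimum fold change. The authors' own fold changes were not used. Some genes are not reported here.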

Additional observations from a re-analysis of the deposited data

How the results depend on the processing

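With scaling to mitochondrially encoded genes, 29 Ube2 and 36 Usp genes were called lower in MII than in GV and 0 of either family higher, with medians of -2.05 and -1.23 and a difference between the families of -0.83. Between Btg4tm and Btg4wt, the same scaling gave 21 Ube2 and 9 Usp genes higher and 0 of either lower, with medians of 1.27 and 0.19, and between Btg4wt and MII it gave medians of 0.41 and 0.50 and 1 Usp gene higher. Among the genes described by rule, the log2 fold change of MII over GV turned sign under this scaling for Ube2c -2.04, Ube2d2a -0.99, Ube2d3 -1.77, Ube2h -1.47, Ube2k -1.37, Ube2o -1.42, Ube2s -2.01, Usp1 -1.15, Usp10 -1.51, Usp16 -0.69, Usp2 -1.57, Usp21 -0.81, Usp22 -1.72, Usp28 -1.07, Usp33 -1.10, Usp34 -0.83, Usp37 -1.001, Usp45 -0.94, Usp46 -1.47, Usp53 -1.13, Usp54 -1.47, Usp7 -1.13 and Usp9x -0.95. That of Btg4tm over Btg4wt turned for Ube2c 0.94, Ube2d2a 0.73, Ube2h 0.91, Ube2k 0.49, Usp1 0.039, Usp16 0.67, Usp2 0.46, Usp21 0.14, Usp22 0.99, Usp28 0.18, Usp34 0.11 and Usp5 0.49. Over all genes the calls for MII over GV were 1752 higher and 3351 lower in the report, 7 and 11403 with this scaling, 1145 and 3699 with TPM as deposited and 3102 and 2711 with quantile normalization, and those for Btg4tm over Btg4wt were 2534 and 1109 in the report, 6089 and 69 with this scaling and 2081 and 1778 with quantile normalization.

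With TPM as deposited, 1 Ube2 and 5 Usp genes were higher in MII than in GV, with medians of -0.16 and 0.49. Quantile normalization gave 5 Ube2 genes in each direction and medians of 0.26 for Ube2 and 0.86 for Usp; between Btg4tm and Btg4wt, it gave 1 Usp gene higher and 21 lower with medians of 0.13 and -0.86. It turned the sign of Ube2t 0.031 for MII over GV and of Ube2d3 -0.066 and Usp14 -0.045 for Btg4tm over Btg4wt. Removing a trend on transcript length gave 3 Usp genes higher and 6 lower in MII than in GV. Between Btg4tm and Btg4wt it gave 3 Usp genes higher and 1 lower. The medians were 0.085 for Ube2 and 0.13 for Usp in the first comparison (difference -0.047) and 0.30 and -0.24 in the second (difference 0.54). This removal turned the sign of Ube2t 0.57, Usp22 -0.079 and Usp54 -0.19 in the first. In the second it turned Ube2h 0.30, Ube2t -0.18 and Usp22 0.43.

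Without a minimum fold change, MII over GV gave 14 Ube2 falls and 11 rises, and 7 Usp falls and 27 rises; between Btg4tm and Btg4wt, 13 Ube2 genes were higher and 6 lower, and 27 Usp genes were lower. The Usp median of MII over GV was 0.69 with a pseudocount of 0.1, 0.50 with no filter and 0.72 with a filter at 5 TPM, and with no filter the difference between the families was -0.51. That of Btg4tm over Btg4wt was -0.85, -0.62 and -0.90, the difference was 1.24, 0.98 and 1.20, and the Ube2 median with the filter at 5 TPM was 0.30. There were 2 alternatives chosen after seeing the data. Leaving out members of shared sequence gave a Usp median of -0.79 and a difference of 1.16 for Btg4tm over Btg4wt. Leaving out the 3 members that belong to neither protein family gave a difference of 1.10. The cause of these shifts was not tested.

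With 1 library left out, its partner was assumed to vary like the other groups. The Usp median of MII over GV was between 0.60 and 0.69. For Btg4tm over Btg4wt, the Ube2 median was between 0.27 and 0.43, the Usp median between -0.73 and -0.63, their difference between 0.95 and 1.10, and the count of Usp genes higher between 1 and 2. The Ube2 median of Btg4wt over MII was between -0.059 and 0.048. Of single genes that turned sign, Ube2t lay between -0.098 and 0.069 for MII over GV, and for Btg4tm over Btg4wt Ube2c lay between -0.39 and 0.092, Ube2h between -0.44 and 0.084, Usp14 between -0.093 and 0.35 and Usp22 between -0.047 and 0.002. Same-numbered libraries did not deviate together across genes (r = -0.016 for GV with MII and 0.055 for Btg4wt with Btg4tm), so the numbers were not taken as pairs; with a replicate block, all 11 Ube2 and 17 Usp calls of MII over GV and all 9 and 15 of Btg4tm over Btg4wt were kept, with 8 Ube2 genes lower and 13 Usp genes higher in MII. Of 1326 values of single genes under alternatives, 1167 kept direction and side of the threshold. Of the others, 53 lost the call, 56 gained one and 50 turned sign. Depth is unknown, and 2 libraries per group limit all of these values.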

Other observations

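Ube2g1, an E2 of lysine-48 chains that works with cullin ligases, was abundant and moved in both comparisons without reaching the fold of a call. It had 231 and 195 scaled TPM in GV, 119 and 112 in MII, 132 and 125.5 in Btg4wt, and 280.3 and 211 in Btg4tm, so that MII and Btg4wt lay below the other groups (log2 fold change -0.88 ± 0.15, limma adjusted p = 0.00105, and 0.91 ± 0.15, limma adjusted p = 0.00123). Usp19, a protease with a form anchored in the endoplasmic reticulum, ran the other way, with 0.87 ± 0.14 (limma adjusted p = 0.000647) and -0.86 ± 0.14 (limma adjusted p = 0.00102). Usp11, in contrast to most Usp genes, had -0.77 ± 0.17 from GV to MII (limma adjusted p = 0.00428) and 0.33 ± 0.17 for Btg4tm over Btg4wt (limma adjusted p = 0.14).

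The pseudogene Ube2d-ps, left out of the members, was listed at 59.3 and 45.2 scaled TPM in GV, 12.8 and 14.7 in MII, 9.78 and 12.5 in Btg4wt, and 37.3 and 34.8 in Btg4tm. Its libraries were high in GV and Btg4tm, whereas Ube2d2a and Ube2d1 were high in MII and Btg4wt. No 50-base stretch of Ube2d1 occurs in transcripts of other genes, and 5.06% of those of Ube2d2a do. How much sequence Ube2d-ps shares with other genes is not given here. How any shared reads were divided is unknown, so these levels are uncertain.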
